A study of Arabidopsis thaliana with 24 samples.

Results

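The WRKY family of transcription factors was followed here in leaves of Arabidopsis thaliana that met a bacterial peptide. Its members were taken as a fixed list of 56 WRKY loci, picked by locus name, with earlier results of these data known. Counts of members refer to this list. Of these 56 loci, 52 had a probe set on the array, 1 each, among the 22746 probe sets tested. WRKY29, WRKY41, WRKY50 and WRKY51 had no probe set under their locus and were not analysed here. By the usual grouping of the family on its DNA-binding domain, the measured members were 11 of group I, 3 of IIa, 6 of IIb, 11 of IIc, 7 of IId, 7 of IIe and 7 of group III.

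WRKY proteins carry a conserved domain that binds W-box elements in the promoters of defence, senescence and stress genes, and many of them regulate each other. When the receptor FLS2 perceives flg22, a peptide of bacterial flagellin, MAP kinase cascades are activated and reach WRKY factors, some by direct phosphorylation and many through induction of their genes. Some members promote immunity and others restrain it, so a rise of WRKY transcripts is known to include both activators and repressors.

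RNA from leaves was measured on 24 Affymetrix ATH1 arrays, in 8 groups of 3. Plants were grown on soil in short days and were 6 weeks old when leaves were infiltrated with 1 µM flg22 or with water and collected 4 h later. The genotypes were erf104-ko, a knockout of the ethylene response factor gene ERF104 given flg22 or water; mpk6-ko, a knockout of the MAP kinase gene MPK6 given flg22 or water; 35S::ERF104, in which the 35S promoter drives ERF104 broadly in the plant, given flg22 or water; and Col-0, the wild type, given flg22 or water. The study's title names an ethylene response factor as a substrate of MPK6, and the comparisons ask how flg22 changes expression in each genotype and whether genotypes differ. Nothing in the labels says that replicate arrays came from separate plants or cultures, so p-values measure only the spread between these arrays. In whole leaves, fewer cells of a type and less RNA per cell cannot be told apart.

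Signals are linear intensities scaled by the authors, and median signals ran from 133 to 302 units per array. All 4 measured leaf markers were called present on every array of all 8 groups, while 3 or 4 of 5 root markers and 4 or 5 of 5 flower markers were called absent on every array of a group. ERF104 gave 8.26 and 10.9 in erf104-ko, 29057, 21442 and 29306 in 35S::ERF104 and 261, 80.1 and 167 in Col-0 under flg22. It was called absent in erf104-ko under both treatments, was at least 4.27-fold lower there than in Col-0 under flg22 (limma adjusted p = 0.00199), and was higher in 35S::ERF104 by 7.44 ± 0.478 on the log2 scale (limma adjusted p = 7.32e-10). MPK6 gave 316, 263 and 465 in mpk6-ko and 1163, 1526 and 724 in Col-0 under water, a log2 difference of −1.69 ± 0.29 (limma adjusted p = 0.0579), and whether its probes lie in the disrupted part was not tested. Replicate 2 of erf104-ko under flg22 correlated with every other array at no more than 0.25, is missing from the authors' own group means, and was left out throughout. Col-0 arrays agreed least within their groups, with correlations of 0.61 to 0.73 under water. The control signal for 25S rRNA was low, at 31.4 to 179 units, on replicates 1 and 2 of both treatments in mpk6-ko and Col-0, and at 577 to 12858 units on the other arrays used. A fit without those 8 arrays is given as an alternative.

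After flg22, WRKY genes rose in every genotype and none passed as lower. In erf104-ko 18 of 52 members rose, in mpk6-ko 13, in 35S::ERF104 15 and in Col-0 9, each at a limma adjusted p under 0.05 over all probe sets. The share of all 22746 probe sets that rose was 4.36% in erf104-ko, 2.17% in mpk6-ko, 7.98% in 35S::ERF104 and 1.58% in Col-0. The share that fell was 5.35%, 1.55%, 10.4% and 0.277% in the same order. In 35S::ERF104, 3 of the 4 leaf markers, RCA, PSBO1 and GAPA, also fell under flg22, with log2 changes of −0.61, −0.87 and −0.77, and their part in its counts was not tested. The median log2 change of the 52 members was 1.00 in erf104-ko, 1.19 in mpk6-ko, 0.56 in 35S::ERF104 and 0.51 in Col-0, against −0.08, 0.01, −0.11 and −0.39 over all probe sets. Centring each array on its median moved the Col-0 median of all probe sets to −0.02 and that of the members to 0.88, with 9 members again rising.

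**Figure D1:**
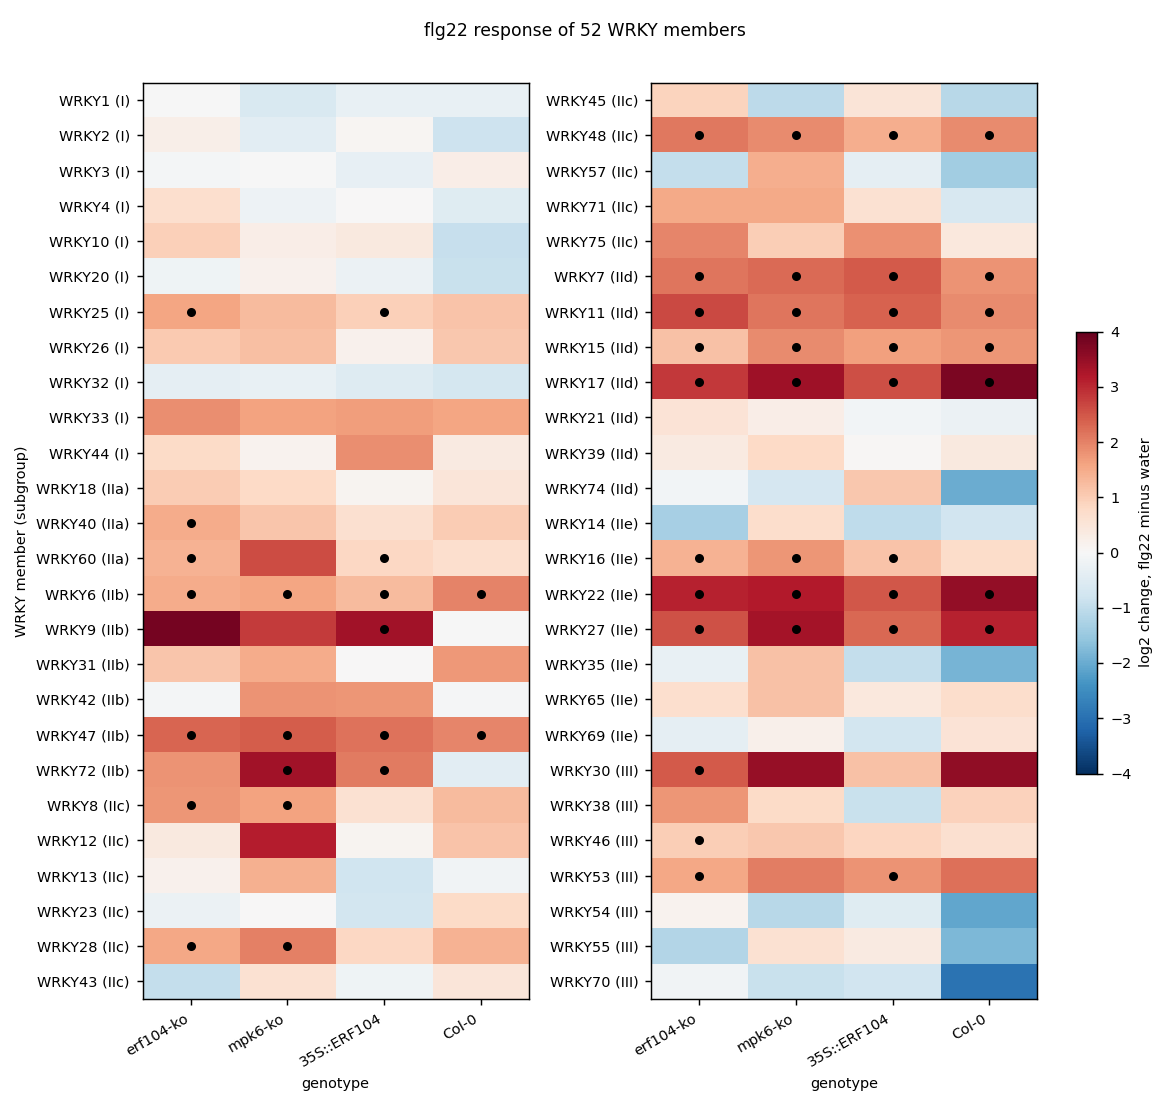
Log2 change (flg22 minus water) of the 52 measured WRKY members, in rows ordered by subgroup, in erf104-ko, mpk6-ko, 35S::ERF104 and Col-0, in columns. Black dots mark adjusted p under 0.05, and 9 members carry a dot in all 4 columns, of which 4 are in subgroup IId.

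The same 9 members rose in all 4 genotypes, namely WRKY6, WRKY7, WRKY11, WRKY15, WRKY17, WRKY22, WRKY27, WRKY47 and WRKY48. Over all probe sets 275 rose in all 4, or 1.21%. These 9 were 50.0% of the members that rose in erf104-ko, 69.2% in mpk6-ko, 60.0% in 35S::ERF104 and all of those in Col-0, where the same share over all probe sets was 27.7%, 55.7%, 15.2% and 76.6%. With WRKY25 added, 10 members had every flg22 array above every water array in each genotype, against 3.17% of all probe sets. No member had every flg22 array below every water array in each genotype, against 2.48% of all probe sets. Of the rest, WRKY16 rose in 3 genotypes, 6 members in 2 and 4 members in 1, and 32 members passed in none.

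In subgroup IId, whose proteins include binders of calmodulin, 4 of the 7 members rose in every genotype: WRKY7 (AT4G24240), WRKY11 (AT4G31550), WRKY15 (AT2G23320) and WRKY17 (AT2G24570). WRKY11 and WRKY17 are close relatives known as negative regulators of basal resistance to bacteria. WRKY17 gave 2159 and 3671 under flg22 against 608, 291 and 360.4 under water in erf104-ko, and 3639, 4430.0 and 2079.6 under flg22 against 324, 238 and 379 under water in mpk6-ko. Its signals were 1362, 2236 and 2738 under flg22 against 229, 483 and 350.3 under water in 35S::ERF104, and 2352, 2889 and 2760.0 under flg22 against 251, 262 and 113 under water in Col-0. Every flg22 array exceeded every water array, and water levels stayed within 113 to 608 units across the genotypes. WRKY17 rose by 2.82 ± 0.322 in erf104-ko, 3.39 ± 0.321 in mpk6-ko, 2.58 ± 0.292 in 35S::ERF104 and 3.77 ± 0.458 in Col-0 on the log2 scale (± SE of the fit), with limma adjusted p of 0.000839, 0.000245, 0.000217 and 1.38e-05 in that order. Detection calls are pooled per group. The lowest signal called present on an array is therefore taken over probe sets called present on every array of its group, here and below. With the 2 Col-0 water arrays that lay below this level set to it, the rise in Col-0 was at least 8.89-fold.

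WRKY11 gave 5519 and 5901 under flg22 against 769.8, 737 and 1319 under water in erf104-ko, and 5253, 4888 and 3929.9 under flg22 against 724, 1019 and 1642 under water in mpk6-ko. It gave 4408, 7597 and 5502 under flg22 against 804, 1411 and 1193 under water in 35S::ERF104, and 2037, 3150.3 and 5415 under flg22 against 543, 860.0 and 1462 under water in Col-0. The treatments of WRKY11 did not overlap in any genotype, and came closest in Col-0. WRKY11 rose by 2.65 ± 0.258 in erf104-ko, 2.13 ± 0.308 in mpk6-ko, 2.36 ± 0.231 in 35S::ERF104 and 1.89 ± 0.429 in Col-0, with limma adjusted p of 0.000389, 0.00322, 0.000111 and 0.0162 in that order. WRKY7 gave 1729.6 and 1552 under flg22 against 399.5, 276 and 463 under water in erf104-ko, and 2499, 1869.6 and 1527 under flg22 against 387, 362 and 447 under water in mpk6-ko. Signals of WRKY7 were 1517, 1641 and 1582 under flg22 against 272, 203 and 428 under water in 35S::ERF104, and 1611, 1858 and 1913 under flg22 against 369.5, 467 and 788 under water in Col-0. WRKY7, which restrains defence against Pseudomonas, stood between 1517 and 2499 units on the flg22 arrays used and between 203 and 788 on the water arrays. WRKY7 rose by 2.14 ± 0.247 in erf104-ko, 2.28 ± 0.272 in mpk6-ko, 2.46 ± 0.23 in 35S::ERF104 and 1.80 ± 0.418 in Col-0, with limma adjusted p of 0.000852, 0.000998, 9.04e-05 and 0.0193 in that order.

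WRKY15 gave 1578 and 2250.1 under flg22 against 995, 554 and 1075 under water in erf104-ko, and 2926, 2918 and 2062 under flg22 against 852, 458 and 862 under water in mpk6-ko. The same gene gave 1498, 2073 and 2578 under flg22 against 619, 537 and 816 under water in 35S::ERF104, and 2402, 2596 and 2156 under flg22 against 668, 717 and 732 under water in Col-0. WRKY15, linked to growth and to osmotic and oxidative stress, rose by 1.17 ± 0.292 in erf104-ko, 1.90 ± 0.301 in mpk6-ko, 1.63 ± 0.21 in 35S::ERF104 and 1.75 ± 0.375 in Col-0, with limma adjusted p of 0.0306, 0.00535, 0.000455 and 0.00945 in that order. Treatments of WRKY15 did not overlap in any genotype, and came closest in erf104-ko. The remaining IId members did not pass in any genotype: WRKY21 (AT2G30590) changed by between −0.23 and 0.54 and WRKY39 (AT3G04670) by between 0.04 and 0.79, while WRKY74 (AT5G28650) was called absent in all 8 groups.

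**Figure D2:**
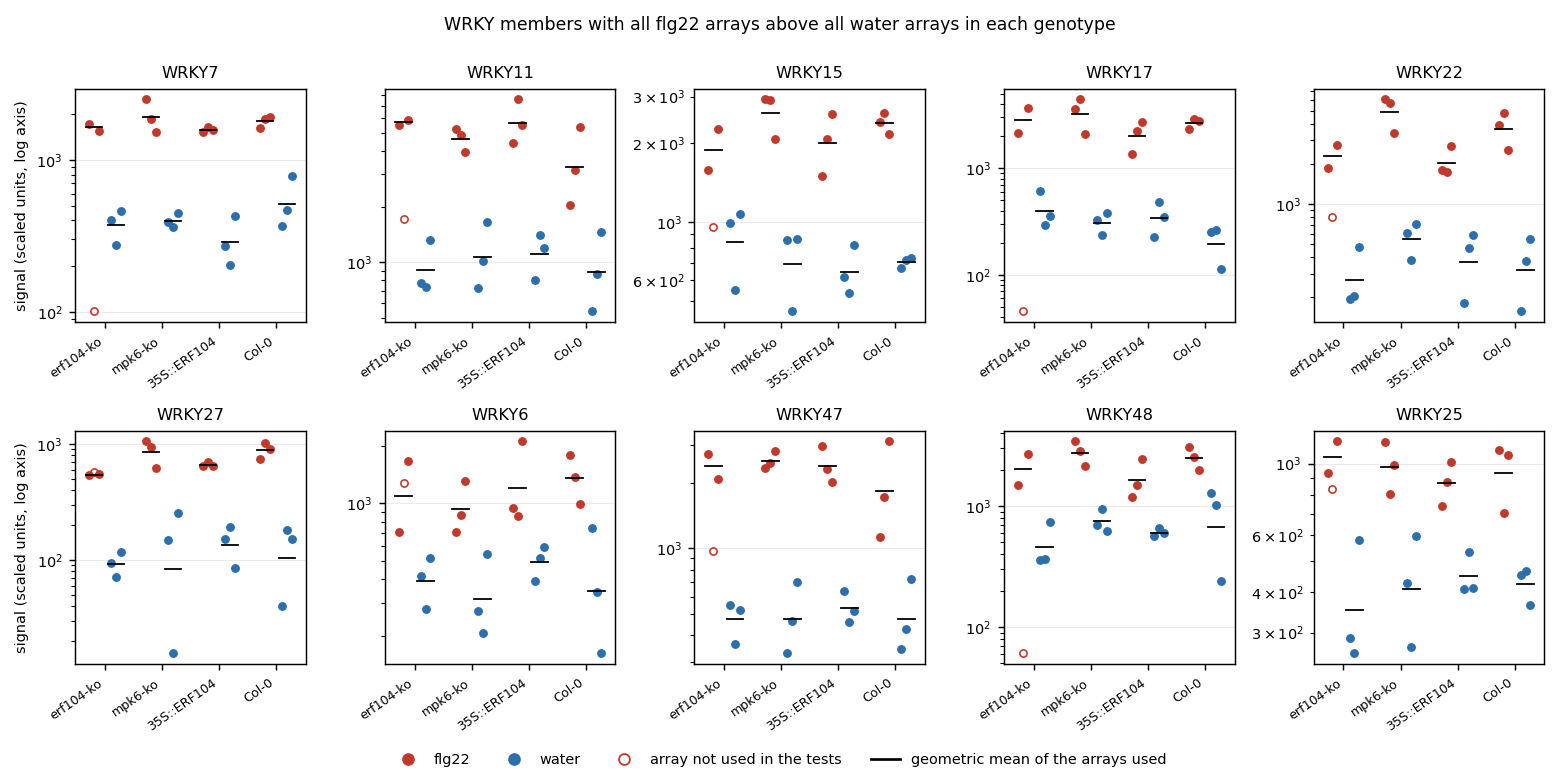
Signals on each array (scaled units, log axis) of the 10 WRKY members whose flg22 arrays (red) all exceeded the water arrays (blue) in erf104-ko, mpk6-ko, 35S::ERF104 and Col-0; bars are geometric means and the open circle is the erf104-ko array not used. WRKY17 runs from 1362 to 4430 units under flg22 on the arrays used, and from 113 to 608 under water.

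In subgroup IIe, WRKY22 (AT4G01250) and WRKY27 (AT5G52830) rose in all 4 genotypes. WRKY22 is placed, with WRKY29, at the end of a flagellin-activated MAP kinase cascade. WRKY22 gave 1862 and 2776 under flg22 against 195, 205 and 479.8 under water in erf104-ko, and 6091, 5775 and 3401 under flg22 against 609, 384 and 708 under water in mpk6-ko. Its signals were 1808, 1731 and 2721 under flg22 against 182, 466 and 589 under water in 35S::ERF104, and 3929, 4788 and 2561 under flg22 against 157, 372 and 548 under water in Col-0. The treatments did not overlap in any genotype, and the highest WRKY22 array was one of mpk6-ko under flg22. WRKY22 rose by 3.09 ± 0.367 in erf104-ko, 3.17 ± 0.313 in mpk6-ko, 2.47 ± 0.364 in 35S::ERF104 and 3.52 ± 0.455 in Col-0, with limma adjusted p of 0.000978, 0.000325, 0.000991 and 3.24e-05 in that order. With Col-0 water replicate 1 set to the lowest signal called present on it, the Col-0 rise was at least 8.8-fold. Of the 9 members that rose in every genotype, only WRKY22 and WRKY17 kept their Col-0 calls whichever Col-0 array was left out.

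WRKY27, known from the symptoms that Ralstonia causes, had low water signals. WRKY27 gave 542 and 547 under flg22 against 94.5, 72.0 and 118 under water in erf104-ko, and 1051, 935 and 624 under flg22 against 147, 15.7 and 253 under water in mpk6-ko. It gave 649, 694 and 642 under flg22 against 151, 192 and 86.0 under water in 35S::ERF104, and 745, 1011 and 899 under flg22 against 40.4, 180.2 and 152 under water in Col-0. It was called absent on all Col-0 water arrays, so its rise there is a bound of at least 3.33-fold (limma adjusted p = 0.0124), measured per array against the higher of its own signal and the lowest signal called present. WRKY27 rose by 2.55 ± 0.353 in erf104-ko, 3.34 ± 0.799 in mpk6-ko and 2.29 ± 0.272 in 35S::ERF104, with limma adjusted p of 0.00196, 0.0406 and 0.000281. With mpk6-ko water replicate 2 set to the lowest signal called present on it, the mpk6-ko rise was at least 6.78-fold. The mpk6-ko call was lost without flg22 replicate 1, flg22 replicate 2 or water replicate 1 (limma adjusted p 0.19, 0.15 and 0.0643). WRKY16 (AT5G45050), also named TTR1, joins a WRKY domain to a receptor of the TIR-NBS-LRR class. WRKY16 gave 327 and 387 under flg22 against 131, 181 and 104 under water in erf104-ko, and 562, 368 and 334 under flg22 against 117, 91.5 and 161 under water in mpk6-ko. Its signals were 519.7, 409 and 357 under flg22 against 216, 195 and 167 under water in 35S::ERF104, and 565, 460.1 and 396 under flg22 against 106, 214 and 975 under water in Col-0. It rose by 1.40 ± 0.355 in erf104-ko, 1.78 ± 0.436 in mpk6-ko and 1.14 ± 0.209 in 35S::ERF104 (limma adjusted p 0.0325, 0.0448 and 0.00334). The mpk6-ko call was lost without any 1 array other than water replicate 3, and the erf104-ko call without any 1 other than water replicate 1. In Col-0 WRKY16 did not pass (limma adjusted p = 0.725), and its water arrays were called absent although replicate 3 read above every flg22 array.

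In subgroup IIb, WRKY6 (AT1G62300) and WRKY47 (AT4G01720) rose in all 4 genotypes. WRKY6 acts in senescence, defence and phosphate transport. WRKY6 gave 710.2 and 1668 under flg22 against 416, 278 and 517 under water in erf104-ko, and 707, 871 and 1307 under flg22 against 273, 207 and 538 under water in mpk6-ko. Its signals were 939.9, 861 and 2114 under flg22 against 393, 517 and 588 under water in 35S::ERF104, and 1797, 1378 and 997 under flg22 against 739, 341 and 163 under water in Col-0. The treatments did not overlap within any genotype, and in Col-0 the lowest WRKY6 array under flg22 read 997 units against 739 for the highest under water. WRKY6 rose by 1.48 ± 0.362 in erf104-ko, 1.57 ± 0.386 in mpk6-ko, 1.28 ± 0.301 in 35S::ERF104 and 1.97 ± 0.513 in Col-0, with limma adjusted p of 0.0279, 0.0448, 0.0131 and 0.0433 in that order. These calls rest on few arrays. The Col-0 call was lost without flg22 replicate 1 or 2 or water replicate 2 or 3 (limma adjusted p 0.171, 0.157, 0.0903 and 0.081). The mpk6-ko call was lost without any 1 array other than water replicate 3. In erf104-ko it was lost without flg22 replicate 3 or water replicate 1 or 2, and in 35S::ERF104 without water replicate 1. With Col-0 water replicate 3 set to the lowest signal called present on it, the Col-0 rise was at least 3.22-fold. WRKY47 gave 2732 and 2084 under flg22 against 552, 365 and 522 under water in erf104-ko, and 2346, 2470.2 and 2796 under flg22 against 330.0, 465 and 698 under water in mpk6-ko. It gave 2946, 2321 and 2010.4 under flg22 against 638, 458 and 514 under water in 35S::ERF104, and 1134, 1732 and 3108 under flg22 against 343, 425 and 727 under water in Col-0. The flg22 arrays of WRKY47 lay at or above 1134 units and the water arrays at or below 727. WRKY47 rose by 2.34 ± 0.236 in erf104-ko, 2.41 ± 0.296 in mpk6-ko, 2.17 ± 0.172 in 35S::ERF104 and 1.95 ± 0.453 in Col-0, with limma adjusted p of 0.000454, 0.00111, 3.99e-05 and 0.0192 in that order.

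Among the other IIb members, WRKY72 (AT5G15130) and WRKY9 (AT1G68150) passed in some genotypes. WRKY72, which contributes to basal immunity, gave 214 and 171 under flg22 in erf104-ko, 377, 169 and 188 in mpk6-ko, 144, 98.3 and 154 in 35S::ERF104 and 41.7, 323 and 204 in Col-0. Under water it was called absent on all arrays of every genotype, at 92.0, 30.2 and 58.3 in erf104-ko, 17.7, 24.8 and 25 in mpk6-ko, 28.4, 36.0 and 28.0 in 35S::ERF104 and 255, 73.8 and 346 in Col-0. It was at least 4.01-fold higher under flg22 in mpk6-ko (limma adjusted p = 0.0325) and at least 3.48-fold in 35S::ERF104 (limma adjusted p = 0.00923). The mpk6-ko call was lost without any 1 array other than water replicate 3, and the 35S::ERF104 call without flg22 replicate 3. WRKY9 signals in 35S::ERF104 were 99.1, 171 and 185 under flg22 and 10.6, 60.7 and 4.65 under water, and it passed as higher under flg22 (limma adjusted p = 0.022). Water replicates 1 and 3 lay below the lowest signal called present on those arrays, 37.7 and 38.01 units, and with these set to that level the rise was at least 3.3-fold. It was called absent on all water arrays of erf104-ko, mpk6-ko and Col-0, and its fitted change there missed the threshold. WRKY31 (AT4G22070) did not pass in any genotype, and WRKY42 (AT4G04450) was called absent in all 8 groups.

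In subgroup IIc, WRKY48 (AT5G49520) rose in all 4 genotypes, and WRKY8 (AT5G46350) and WRKY28 (AT4G18170) in 2. WRKY48 is a repressor of basal defence. WRKY48 gave 1494 and 2706 under flg22 against 361, 368 and 739 under water in erf104-ko, and 3430.1, 2849 and 2138 under flg22 against 693, 954 and 627 under water in mpk6-ko. Its signals were 1196, 1501 and 2441 under flg22 against 561, 654 and 600.0 under water in 35S::ERF104, and 3079, 2545 and 2001 under flg22 against 1277, 1014 and 239 under water in Col-0. The treatments were well apart in the mutants and the transgenic line, while in Col-0 the water arrays spread from 239 to 1277 units. WRKY48 rose by 2.12 ± 0.343 in erf104-ko, 1.89 ± 0.274 in mpk6-ko, 1.44 ± 0.223 in 35S::ERF104 and 1.89 ± 0.487 in Col-0, with limma adjusted p of 0.00411, 0.00336, 0.0013 and 0.041 in that order. With Col-0 water replicate 3 set to the lowest signal called present on it, the Col-0 rise was at least 3.46-fold. The Col-0 call was lost without flg22 replicate 1 (adjusted p 0.128), flg22 replicate 2 (0.107) or water replicate 3 (0.0879).

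WRKY8, a partner of the VQ-motif protein VQ9, passed in both knockouts. WRKY8 gave 718 and 875 under flg22 against 255, 206 and 236 under water in erf104-ko, and 853, 613 and 811 under flg22 against 334, 212 and 215 under water in mpk6-ko. Its signals were 295, 314 and 519 under flg22 against 241, 315 and 176 under water in 35S::ERF104, and 441, 559.9 and 769 under flg22 against 448, 126 and 248 under water in Col-0. WRKY8 rose by 1.77 ± 0.243 in erf104-ko and 1.60 ± 0.326 in mpk6-ko (limma adjusted p 0.00188 and 0.019), and gave 0.62 ± 0.278 in 35S::ERF104 and 1.25 ± 0.601 in Col-0 (limma adjusted p 0.174 and 0.413). WRKY28 is an activator of ICS1, the gene of salicylic acid synthesis. WRKY28 gave 486 and 705 under flg22 against 261, 126 and 251 under water in erf104-ko, and 853, 679 and 738 under flg22 against 182, 203 and 171 under water in mpk6-ko. It gave 386, 265 and 478 under flg22 against 176, 269.6 and 182 under water in 35S::ERF104, and 772, 571 and 421 under flg22 against 641, 189 and 86.5 under water in Col-0. WRKY28 rose by 1.54 ± 0.358 in erf104-ko and 2.03 ± 0.314 in mpk6-ko (limma adjusted p 0.0222 and 0.00467). In 35S::ERF104 the value was 0.83 ± 0.264 and in Col-0 1.38 ± 0.67 (limma adjusted p 0.052 and 0.42), with overlapping arrays in both. With Col-0 water replicate 3 set to the lowest signal called present on it, the Col-0 value was 0.80. The other IIc members did not pass in any genotype.

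In group I, most of whose members carry a pair of WRKY domains, only WRKY25 (AT2G30250) passed. WRKY25, which acts with WRKY26 (AT5G07100) and WRKY33 (AT2G38470) in heat tolerance, had every flg22 array above every water array in each genotype. WRKY25 gave 938 and 1172 under flg22 against 289, 259 and 579 under water in erf104-ko, and 1168, 805 and 991 under flg22 against 427, 270.3 and 598 under water in mpk6-ko. Its signals were 738, 878 and 1012 under flg22 against 408, 533 and 413 under water in 35S::ERF104, and 1100.4, 706 and 1063 under flg22 against 452, 465 and 366 under water in Col-0. WRKY25 rose by 1.58 ± 0.327 in erf104-ko and 0.96 ± 0.168 in 35S::ERF104 (limma adjusted p 0.013 and 0.00262). Its values of 1.25 ± 0.332 in mpk6-ko and 1.14 ± 0.456 in Col-0 missed the threshold (limma adjusted p 0.0609 and 0.287).

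WRKY33, a substrate of MPK3 and MPK6 and an activator of camalexin synthesis, did not pass in the main fit of any genotype. WRKY33 gave 1136 and 2709.7 under flg22 against 286, 342 and 1147 under water in erf104-ko, and 622, 433 and 1674 under flg22 against 138, 141 and 799 under water in mpk6-ko. Its signals were 1053, 3721 and 5635 under flg22 against 523, 918 and 1394 under water in 35S::ERF104, and 1078, 663 and 1448 under flg22 against 434, 259 and 339.9 under water in Col-0. In erf104-ko, mpk6-ko and 35S::ERF104 the highest water array, replicate 3, exceeded the lowest flg22 array, whereas in Col-0 the treatments did not overlap. The log2 change was 1.86 ± 0.532 in erf104-ko, 1.62 ± 0.652 in mpk6-ko, 1.68 ± 0.529 in 35S::ERF104 and 1.59 ± 0.486 in Col-0, with limma adjusted p of 0.0523, 0.245, 0.0508 and 0.116 in that order. WRKY33 passed in mpk6-ko without water replicate 3, at 2.46 (adjusted p 0.00304), in erf104-ko without water replicate 3 (adjusted p 0.00121), and in 35S::ERF104 without flg22 replicate 1 (adjusted p 0.000852) or water replicate 3 (adjusted p 0.0483). With no further array left out, WRKY33 also passed in erf104-ko and 35S::ERF104 under several alternatives. These were centring on the median, a filter on mean signal or on detection calls, array weights, and a block for replicate number. In mpk6-ko and Col-0 it passed with that block. The other 9 group I members did not pass in the main fit of any genotype.

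Groups IIa and III hold known regulators of salicylic acid signalling and senescence. In the main fits each had members that passed in erf104-ko and 35S::ERF104 but not in mpk6-ko or Col-0. These calls changed with single arrays. In erf104-ko, WRKY30 (AT5G24110), WRKY40 (AT1G80840), WRKY46, WRKY53 (AT4G23810) and WRKY60 (AT2G25000) each lost their call without flg22 replicate 3 or without water replicate 2. WRKY40, WRKY46 and WRKY60 also lost it there without flg22 replicate 1, and WRKY30, WRKY40 and WRKY53 without water replicate 1. In 35S::ERF104, WRKY60 lost its call without flg22 replicate 1 or 2 or water replicate 1. Without water replicate 3 of mpk6-ko, WRKY18 (AT4G31800), WRKY30, WRKY40, WRKY53 and WRKY60 passed there, and without water replicate 3 of Col-0, WRKY53 passed there. These are the only water arrays of mpk6-ko and Col-0 without a low 25S rRNA signal, at 2898 and 1181 units. Flg22 replicate 3, at 5061 and 5487 units, stayed in. Without them treatment is therefore partly mixed with the 25S rRNA signal, whose part was not tested. The 1 fit of 23 arrays also called WRKY30 in mpk6-ko and Col-0 and WRKY60 in mpk6-ko. The difference of these responses between genotypes is tested further on. WRKY53, a senescence regulator, gave 1168 and 2109.6 under flg22 in erf104-ko, 985, 475 and 2225 in mpk6-ko, 1262, 3291 and 4030.4 in 35S::ERF104 and 908, 776 and 1586 in Col-0. Under water its signals were 454, 369 and 943 in erf104-ko, 99.2, 119 and 1285 in mpk6-ko, 532, 876 and 841 in 35S::ERF104 and 86.2, 126 and 1052 in Col-0. Replicate 3 under water read above 2 of the 3 flg22 arrays of WRKY53 in mpk6-ko and in Col-0. The change of WRKY53 was 1.54 ± 0.377 in erf104-ko, 2.03 ± 0.822 in mpk6-ko, 1.81 ± 0.367 in 35S::ERF104 and 2.20 ± 0.681 in Col-0, with limma adjusted p of 0.0278, 0.248, 0.00595 and 0.119 in that order, so the erf104-ko and 35S::ERF104 values passed in the main fit. With Col-0 water replicates 1 and 2 set to the lowest signal called present on them, the Col-0 value was 1.46.

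WRKY30 gave 309 and 867 under flg22 against 60.9, 72.1 and 194 under water in erf104-ko, a rise of 2.45 ± 0.567 (limma adjusted p = 0.0215), and 250.2, 117 and 361 under flg22 against 5.91, 11.5 and 109.9 under water in mpk6-ko, which missed the threshold (limma adjusted p = 0.114). Its signals were 57.7, 392.3 and 602 under flg22 against 163, 123 and 59.2 under water in 35S::ERF104, and 289, 172 and 457 under flg22 against 13.2, 11.6 and 94.5 under water in Col-0, where the water arrays were called absent and it was not called (limma adjusted p = 0.239). WRKY46 (AT2G46400), which acts with WRKY54 (AT2G40750) and WRKY70 (AT3G56400) in growth under brassinosteroid and in drought, rose by 0.99 ± 0.251 in erf104-ko (limma adjusted p = 0.0324), with 528 and 627 under flg22 against 301, 242 and 335 under water in erf104-ko. In the other genotypes its arrays overlapped between treatments. WRKY38 (AT5G22570) did not pass in any genotype, and WRKY55 (AT2G40740) was called absent in all 8 groups.

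WRKY18, WRKY40 and WRKY60 make up subgroup IIa and interact as regulators of immunity. WRKY40 gave 1111 and 1736 under flg22 against 359, 392.4 and 862 under water in erf104-ko, and 532, 458 and 1131 under flg22 against 183, 223 and 665 under water in mpk6-ko. Its signals were 641, 948 and 975 under flg22 against 391.6, 665 and 586 under water in 35S::ERF104, and 738, 641 and 989 under flg22 against 287, 259.8 and 748 under water in Col-0. WRKY40 rose by 1.49 ± 0.357 in erf104-ko (limma adjusted p = 0.0253). The values of 1.12 ± 0.496 in mpk6-ko, 0.65 ± 0.224 in 35S::ERF104 and 1.02 ± 0.515 in Col-0 did not pass (limma adjusted p 0.306, 0.0716 and 0.446), with overlapping arrays in all 3. WRKY18 gave 1465 and 1543 under flg22 against 465, 542 and 1665 under water in erf104-ko, and 1305, 965 and 1425 under flg22 against 546, 615 and 1015 under water in mpk6-ko. It gave 945, 989 and 894 under flg22 against 726, 1040.4 and 905 under water in 35S::ERF104, and 842, 946 and 1425 under flg22 against 970.1, 708 and 612 under water in Col-0. WRKY18 overlapped between treatments in every genotype, with changes of 1.01 ± 0.437 in erf104-ko, 0.80 ± 0.301 in mpk6-ko, 0.10 ± 0.15 in 35S::ERF104 and 0.48 ± 0.422 in Col-0 and limma adjusted p of 0.205, 0.205, 0.744 and 0.715 in that order. WRKY60 gave 602 and 456 under flg22 against 234, 192 and 183 under water in erf104-ko, and 341, 331 and 279 under flg22 against 164, 200.4 and 169 under water in 35S::ERF104. It rose by 1.38 ± 0.277 in erf104-ko and 0.83 ± 0.206 in 35S::ERF104 (limma adjusted p 0.0113 and 0.0171), against 2.61 ± 0.974 in mpk6-ko and 0.68 ± 0.614 in Col-0 (limma adjusted p 0.201 and 0.72).

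**Figure D3:**
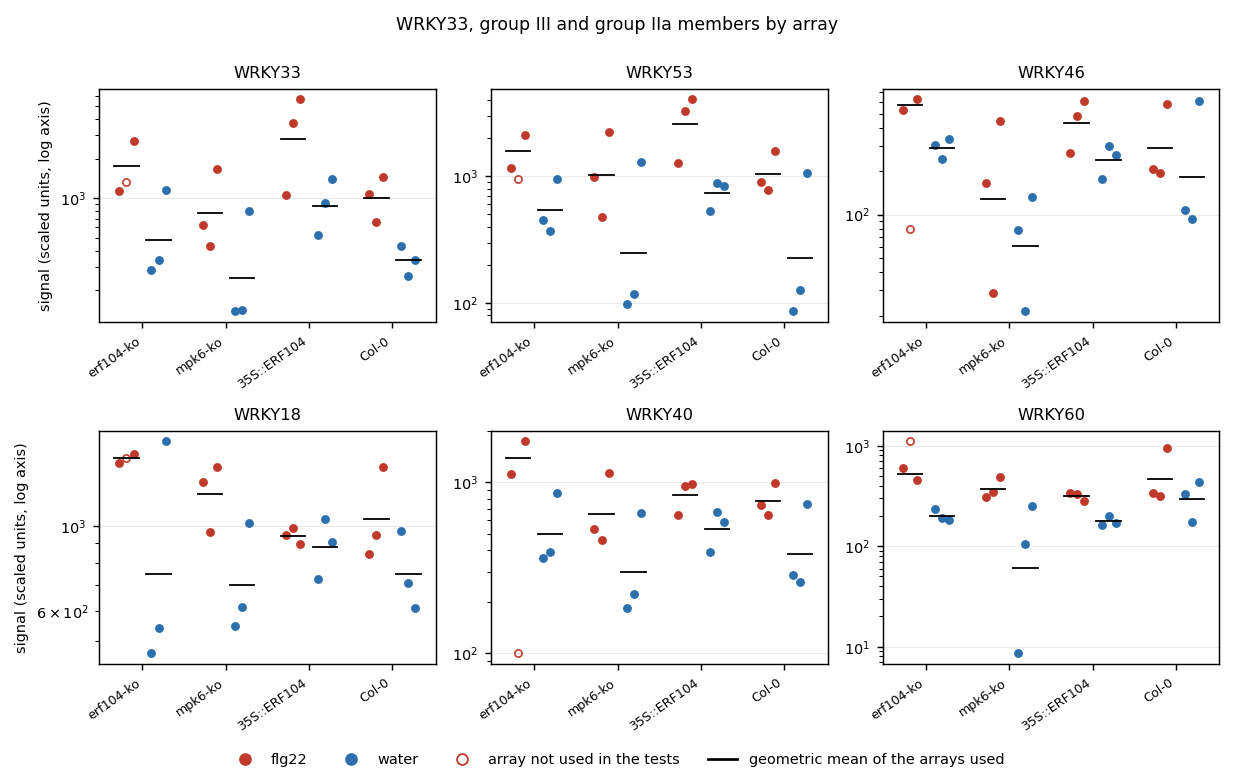
Signals on each array (scaled units, log axis) of WRKY33, the group III members WRKY53 and WRKY46, and the IIa members WRKY18, WRKY40 and WRKY60, with flg22 (red) left of water (blue) in each genotype; bars are geometric means and the open circle is the erf104-ko array not used. Under water WRKY53 lies at 86.2 to 126 units on replicates 1 and 2 in mpk6-ko and Col-0, and replicate 3 at 1285 in mpk6-ko and 1052 in Col-0.

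The response calls rest on few arrays and on how the spread was estimated. Without a trend of the spread with signal level in limma, 0 members passed in erf104-ko, mpk6-ko and Col-0, while 10 passed in 35S::ERF104. At an unadjusted p under 0.05 in that fit, 23 members were higher under flg22 in erf104-ko, 18 in mpk6-ko and 11 in Col-0. The share of all probe sets at an unadjusted p under 0.05 is not given, here or below. Member counts at that level are therefore not read as a result about the family. In erf104-ko 5 members passed without flg22 replicate 3, 11 without flg22 replicate 1 and 8 without water replicate 2. In mpk6-ko 7 passed without flg22 replicate 1, 8 without flg22 replicate 2 and 20 without water replicate 3. That last array is the only mpk6-ko water array without a low 25S rRNA signal. In Col-0 2 members, WRKY17 and WRKY22, passed without flg22 replicate 2, and without flg22 replicate 3 5 rose and 1, WRKY70, fell. With quantile normalization 4 members rose in Col-0, and with all 24 arrays 0 passed in erf104-ko. A fit of 15 arrays left out the arrays of mpk6-ko and Col-0 with a low 25S rRNA signal. It called more members in Col-0, some of them lower under flg22, and fewer in mpk6-ko. That fit compares 1 array with 1 in these genotypes and assumes that a lone array varies like the other groups. The share of all probe sets called in it is not given, so its calls are not read as a result about the family.

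Detection calls are listed per group in the authors' table. Members called present on every array numbered 35 of 52 under flg22 and 26 under water in erf104-ko, 22 and 16 in mpk6-ko, 35 and 32 in 35S::ERF104, and 20 and 0 in Col-0. Over all probe sets the shares were 51.4% and 46.1% in erf104-ko, 35.4% and 40% in mpk6-ko, 53.8% and 52.1% in 35S::ERF104, and 23.8% and 10.5% in Col-0. Of the 52 members, 8 were called absent on all arrays of all groups: WRKY10 (AT1G55600), WRKY12 (AT2G44745), WRKY14 (AT1G30650), WRKY42, WRKY43 (AT2G46130), WRKY55, WRKY71 (AT1G29860) and WRKY74. WRKY10, also called MINI3, is known for seed size and WRKY12 for the secondary walls of stems. All 9 members that rose in each genotype were called present on every flg22 array of every genotype.

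Comparisons between genotypes called 0 to 2 of the 52 WRKY members in 1 fit of 23 arrays, and those with Col-0 share its arrays. The fit of 15 arrays called more members relative to Col-0 under water. There Col-0 is replicate 3 alone, whose median signal of 302 units was the highest of the arrays used. The share of all probe sets that passed in that fit is not given, so those calls are not read as a result about the family. For erf104-ko against Col-0 under water, 2 of 52 members were lower in erf104-ko and none higher, where 6.3% of all probe sets passed in either direction. WRKY21 gave 395, 278 and 342 in erf104-ko and 957, 595 and 559.9 in Col-0, a difference of −1.03 ± 0.296 (limma adjusted p = 0.0399), beside a median of −0.51 over all probe sets. WRKY57 (AT1G69310), known in drought and jasmonate responses, gave 71.0, 62.4 and 83.7 in erf104-ko and 372, 188 and 1646 in Col-0, but was called absent in both, so no fold is given (limma adjusted p = 0.0327). With each array centred on its median neither passed, and WRKY17 was instead higher in erf104-ko, at 1.70 (limma adjusted p 0.0219). The WRKY21 call was also lost without Col-0 water replicate 1 (adjusted p 0.142), without any 1 of the erf104-ko water arrays (adjusted p 0.0716, 0.148 and 0.0808 for replicates 1, 2 and 3), with quantile normalization, without a trend, with array weights, with all 24 arrays and with only the 2 groups fitted.

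For erf104-ko against Col-0 under flg22, 0 members passed at the adjusted threshold in limma, where 0.0132% of all probe sets passed it. At an unadjusted p under 0.05 there were 3 members, with no share of all probe sets given at that level. The 3 smallest unadjusted p-values belonged to WRKY70, WRKY57 and WRKY54. WRKY57 gave 88.8 and 15.6 in erf104-ko and 175, 219 and 164 in Col-0 (limma adjusted p = 0.512). WRKY70 and WRKY54 are described with the rRNA control.

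For mpk6-ko against Col-0, 0 members passed in limma under either treatment, where 0.0044% of all probe sets passed under water and 0.0% under flg22. At an unadjusted p under 0.05, 8 members were lower in mpk6-ko under water and 0 passed under flg22. Under water the smallest unadjusted p-values belonged to WRKY72, WRKY57 and WRKY60. WRKY60 gave 8.63, 104 and 254 in mpk6-ko and 329, 175 and 434 in Col-0, a difference of −2.26 ± 0.719 (limma adjusted p = 0.191), while WRKY72 and WRKY57 (limma adjusted p 0.155 each) were called absent in both genotypes. WRKY57 read 20.5, 123 and 72.2 in mpk6-ko. Under flg22 WRKY70, WRKY75 (AT5G13080) and WRKY1 (AT2G04880) had the smallest unadjusted p-values. WRKY75, known in phosphate starvation, gave 25.4, 5.47 and 52.7 in mpk6-ko and 231, 78.6 and 55.9 in Col-0, and WRKY1 gave 146, 314 and 319.7 in mpk6-ko and 489, 250.0 and 448 in Col-0 (limma adjusted p 1 and 1).

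When 35S::ERF104 was compared with Col-0 under water, WRKY72 was the single member past the threshold, where 5.86% of all probe sets passed. It read lower in 35S::ERF104, with the water signals given with its response, but was called absent in both genotypes (limma adjusted p = 0.0406). With each array centred on its median WRKY72 did not pass and WRKY17 was higher in 35S::ERF104, at 1.45 (limma adjusted p 0.0429). Under flg22, 0 of 52 members passed at the adjusted threshold in limma, where 0.44% of all probe sets passed it. At an unadjusted p under 0.05 there were 7 members, with no share of all probe sets given at that level. WRKY12, WRKY39 and WRKY38 had the smallest unadjusted p-values. WRKY39 gave 373, 321 and 155 in 35S::ERF104 and 1221, 799.7 and 405 in Col-0, a difference of −1.47 ± 0.526 (limma adjusted p = 0.205). WRKY38, which limits basal defence, gave 38.9, 15.5 and 6.89 in 35S::ERF104 and 262, 76.8 and 88.3 in Col-0, and WRKY12 gave 4.85, 7.39 and 4.42 in 35S::ERF104 and 286, 62.5 and 29.3 in Col-0, called absent in both (limma adjusted p 0.232 and 0.148).

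The members of known function in flagellin signalling did not pass between genotypes. WRKY22 under flg22 differed from Col-0 by −0.68 in erf104-ko (95% interval −1.71 to 0.36), 0.44 in mpk6-ko (−0.49 to 1.36) and −0.83 in 35S::ERF104 (−1.76 to 0.09). WRKY33 under flg22 differed by 0.79 in erf104-ko (−0.73 to 2.32), −0.40 in mpk6-ko (−1.76 to 0.96) and 1.47 in 35S::ERF104 (0.11 to 2.83). Of these WRKY22 and WRKY33 differences the lowest limma adjusted p was 0.3. In 35S::ERF104 WRKY33 was above all 3 Col-0 arrays under water, at 1.38 ± 0.66 (limma adjusted p = 0.168). WRKY53 under flg22 differed by 0.60 (−1.26 to 2.46), −0.03 (−1.70 to 1.63) and 1.302 (−0.36 to 2.97) in erf104-ko, mpk6-ko and 35S::ERF104. For WRKY40 the 3 differences were 0.84, −0.25 and 0.11, and for WRKY18 0.53, 0.22 and −0.15, none of which passed.

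The difference between flg22 responses was tested directly, and 0 members passed in limma for erf104-ko, mpk6-ko or 35S::ERF104 against Col-0, where 0.0% of all probe sets passed in each. At an unadjusted p under 0.05 there were 1, 3 and 2 members. A call in one genotype and not in another, as for groups IIa and III, is therefore not a tested difference between genotypes. For erf104-ko the smallest unadjusted p-values belonged to WRKY4 (AT1G13960), WRKY72 and WRKY9, with a response difference of 1.17 ± 0.563 for WRKY4. For mpk6-ko they belonged to WRKY72, WRKY57 and WRKY20 (AT4G26640), with 1.07 ± 0.426 for WRKY20. For 35S::ERF104 they belonged to WRKY72, WRKY17 and WRKY74, with −1.18 ± 0.536 for WRKY17. The lowest limma adjusted p among these 9 was 0.601. WRKY72, WRKY57, WRKY9 and WRKY74 were called absent on every Col-0 water array, so no size is given for them.

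Signals of WRKY4 were 427 and 396 under flg22 against 170.1, 278 and 361 under water in erf104-ko, and 635, 231 and 388 under flg22 against 749, 521 and 405 under water in Col-0. WRKY9 gave 172 and 209 under flg22 against 44.2, 3.15 and 16.8 under water in erf104-ko, and 33.7, 103 and 347 under flg22 against 334, 11.7 and 329 under water in Col-0. Col-0 replicate 1 and replicate 3 under water were high for WRKY9 without being called present. WRKY20 gave 547, 685 and 367 under flg22 against 464, 500.01 and 414 under water in mpk6-ko, and 465, 461 and 324 under flg22 against 1073, 578 and 722 under water in Col-0. WRKY57 gave 95.1, 274 and 142 under flg22 against 20.5, 123 and 72.2 under water in mpk6-ko, and was called absent there under both treatments. WRKY74 signals were 7.18, 47.5 and 49.1 under flg22 against 6.97, 12.5 and 20.9 under water in 35S::ERF104, and 52.9, 42.7 and 11.5 under flg22 against 288, 45.7 and 121 under water in Col-0, all called absent. Of the 9 shared members, WRKY17 was the one whose 95% interval left out 0, at −2.29 to −0.08 for 35S::ERF104 minus Col-0, and its adjusted p was 0.732. WRKY22 differed by −0.43 in erf104-ko (−1.82 to 0.95), −0.35 in mpk6-ko (−1.66 to 0.95) and −1.05 in 35S::ERF104 (−2.36 to 0.26). WRKY33 differed by 0.28, 0.03 and 0.10 in the same order, with intervals of −1.77 to 2.32, −1.89 to 1.96 and −1.83 to 2.02.

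**Figure D4:**
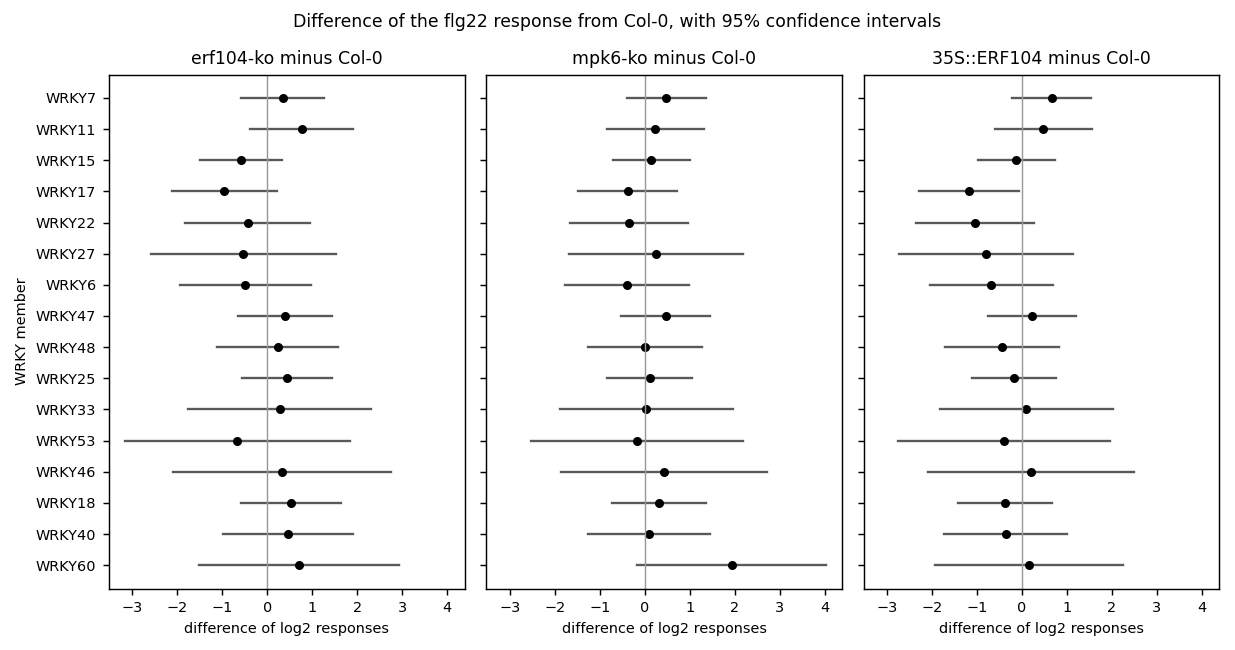
Difference of the log2 flg22 response between each line and Col-0 (points) with 95% confidence intervals (lines) for 16 WRKY members, in panels for erf104-ko, mpk6-ko and 35S::ERF104. All intervals include 0 except that of WRKY17 in 35S::ERF104, which runs from −2.29 to −0.08 and whose adjusted p is 0.732.

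The lines with the highest and the lowest ERF104 signal were also compared, in comparisons added after the data had been seen. For 35S::ERF104 against erf104-ko, 0 members passed in limma under water, under flg22 or in the difference of responses, where 0.022%, 0.0879% and 0.0% of all probe sets passed. At an unadjusted p under 0.05, 1 member passed under flg22 and 0 in the other comparisons. That member, WRKY8, gave 295, 314 and 519 under flg22 in 35S::ERF104 and 718 and 875 in erf104-ko, a difference of −1.12 ± 0.435 (limma adjusted p = 1). All 3 arrays of 35S::ERF104 lay below both arrays of erf104-ko. WRKY18 was arranged in the same way, at −0.67 ± 0.4, and WRKY12 was called absent in both lines. With limma's array weights WRKY8 passed at −1.20 (adjusted p 0.02), and with only the 2 groups fitted WRKY18 passed at −0.67 (adjusted p 0.0419). Under water the smallest unadjusted p-values belonged to WRKY2 (AT5G56270), WRKY21 and WRKY65 (AT1G29280), with differences of 0.88 ± 0.433, 0.52 ± 0.296 and 0.80 ± 0.485. WRKY2 gave 277, 238 and 249 in 35S::ERF104 and 67.5, 199.8 and 194 in erf104-ko. WRKY65 gave 175, 158 and 251 in 35S::ERF104 and 119, 93.7 and 118 in erf104-ko. The response difference was smallest in unadjusted p for WRKY8, WRKY18 and WRKY38, at −1.16 ± 0.584 for WRKY8 and −0.91 ± 0.536 for WRKY18, while WRKY38 was called absent in erf104-ko under both treatments.

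WRKY54 and WRKY70, related group III members that limit salicylic acid accumulation and leaf senescence, split the arrays in another way than treatment or genotype. WRKY54 under flg22 gave 519.9 and 656 in erf104-ko, 10.2, 8.62 and 754 in mpk6-ko, 391, 262 and 429.6 in 35S::ERF104 and 17.7, 25.2 and 668 in Col-0. Under water it gave 836, 314 and 566 in erf104-ko, 23.3, 37.9 and 738 in mpk6-ko, 426, 659 and 439 in 35S::ERF104 and 408, 103 and 542 in Col-0. Replicates 1 and 2 of both treatments in mpk6-ko, and of flg22 in Col-0, read at most 37.9 units, and replicate 3 of the same groups at least 668. WRKY70 under flg22 gave 752 and 1342 in erf104-ko, 306, 80.8 and 1448 in mpk6-ko, 297, 448 and 623 in 35S::ERF104 and 9.44, 55.5 and 901 in Col-0. Its water signals were 1289.5, 820.1 and 1324 in erf104-ko, 428, 296 and 1780.1 in mpk6-ko, 432, 1343 and 717 in 35S::ERF104 and 485, 402 and 1097 in Col-0. Here too replicate 3 was the highest array of mpk6-ko and of Col-0 under both treatments. The same held for WRKY30, WRKY40, WRKY46 and WRKY53, so this order is not particular to WRKY54 and WRKY70. Under water WRKY46 gave 78.7, 21.4 and 132 in mpk6-ko and 107, 92.6 and 611 in Col-0.

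The low arrays were among those with a low 25S rRNA control signal, which was 31.4 and 179 units on replicates 1 and 2 of Col-0 under flg22 and 49.4 to 128 on those of mpk6-ko, against 2898 to 5487 on replicate 3 of these groups. In Col-0 under water the rRNA control read 88.1 and 39.7 on replicates 1 and 2 and 1181 on replicate 3, while WRKY54 was low on replicate 2 only. The part of this in the signals of WRKY54, WRKY70 and the other members named with them was not tested. Against Col-0 under flg22, WRKY70 differed by 3.69 ± 1.17 in erf104-ko and WRKY54 by 3.13 ± 1.51 (limma adjusted p 0.492 and 0.566). Without Col-0 flg22 replicate 3 the WRKY70 difference was 5.46 (adjusted p 0.00738), and in the fit of 15 arrays it was 0.16 (adjusted p 0.999). In the same fit WRKY54 came to −0.20. The flg22 response of WRKY70 was −0.15 ± 0.288 in erf104-ko, −0.89 ± 0.872 in mpk6-ko, −0.78 ± 0.373 in 35S::ERF104 and −2.94 ± 1.09 in Col-0, with limma adjusted p of 0.827, 0.746, 0.205 and 0.233 in that order. It passed as lower under flg22 in Col-0 without Col-0 flg22 replicate 3, and in 35S::ERF104 without 35S::ERF104 water replicate 1.

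**Figure D5:**
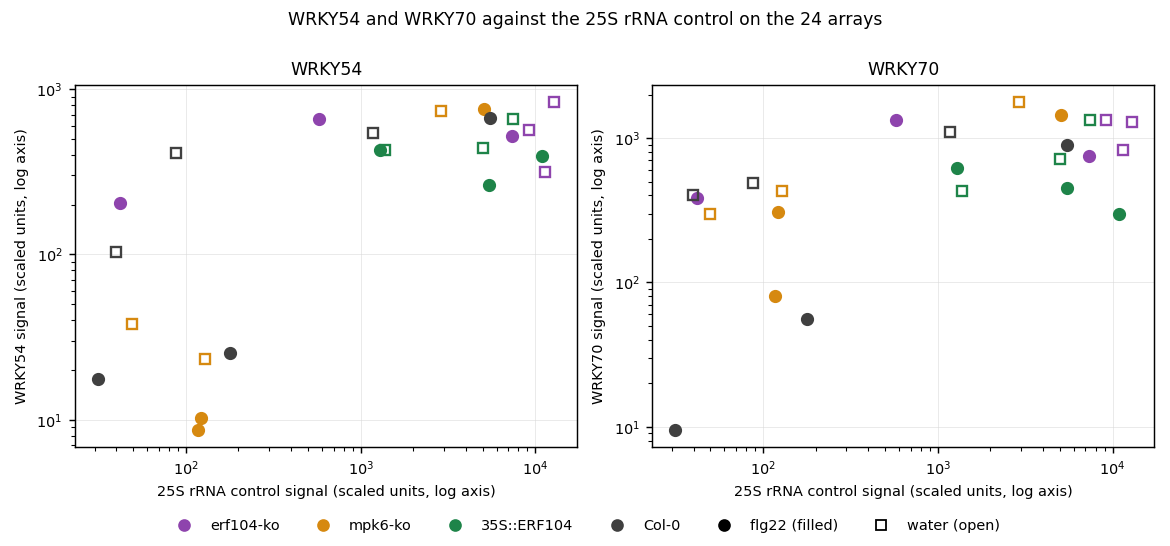
Signals of WRKY54 (left) and WRKY70 (right) against the 25S rRNA control signal on each of the 24 arrays (scaled units, log axes), coloured by genotype, with filled circles for flg22 and open squares for water. The 9 arrays with a 25S rRNA signal of 179 or less include all with a WRKY54 signal of 206 or less.

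Genes that act before, with or after WRKY factors were read from 3 further lists. Beside their counts, 4.36% of all probe sets rose in erf104-ko, 2.17% in mpk6-ko, 7.98% in 35S::ERF104 and 1.58% in Col-0. Of 12 genes of the flagellin receptor and MAP kinase steps, 5 rose in erf104-ko, 2 in mpk6-ko, 9 in 35S::ERF104 and 1 in Col-0, and none fell. BIK1, a kinase at the receptor, rose in all 4, by 1.62 ± 0.277 in erf104-ko, 1.63 ± 0.24 in mpk6-ko, 1.46 ± 0.142 in 35S::ERF104 and 1.60 ± 0.373 in Col-0, and BAK1, the co-receptor of FLS2, rose in all but Col-0, by 1.54 ± 0.254, 1.42 ± 0.258 and 1.09 ± 0.133 in erf104-ko, mpk6-ko and 35S::ERF104. MKK5, a MAP kinase kinase of MPK3 and MPK6, rose by 1.01 ± 0.195 in erf104-ko and 0.86 ± 0.16 in 35S::ERF104. Of 10 VQ-motif proteins, which bind WRKY factors, 4 rose in erf104-ko, 2 in mpk6-ko, 6 in 35S::ERF104 and 1 in Col-0, and none fell. VQ12 averaged 2663 ± 653 under flg22 and 760.4 ± 291 under water in erf104-ko, and 2667 ± 187 and 348 ± 250.3 in Col-0 (SD), and rose in all 4 by 1.87 ± 0.322 in erf104-ko, 2.83 ± 0.294 in mpk6-ko, 2.03 ± 0.324 in 35S::ERF104 and 3.29 ± 0.517 in Col-0. With 1 Col-0 array set to the lowest signal called present on it, the VQ12 rise in Col-0 was at least 6.74-fold. MKS1, which holds WRKY33 in a complex with MPK4, rose by 1.59 ± 0.364 in erf104-ko, 1.69 ± 0.339 in mpk6-ko and 1.23 ± 0.27 in 35S::ERF104.

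Of 12 genes that other studies describe as bound or controlled by WRKY factors, 4 rose in erf104-ko, 3 in mpk6-ko, 8 in 35S::ERF104 and 3 in Col-0, and none fell. FRK1, a receptor-like kinase gene used as a marker of the flagellin response, gave 12452 and 14099.8 under flg22 against 1207, 739 and 1977 under water in erf104-ko, and 8649, 8569 and 10547 under flg22 against 108, 103 and 1460.4 under water in mpk6-ko. Its signals were 9226, 10245 and 10432 under flg22 against 625, 1290.2 and 1559.8 under water in 35S::ERF104, and 5334, 8635 and 13365 under flg22 against 37.2, 534 and 879 under water in Col-0. FRK1 rose by 3.46 ± 0.341 in erf104-ko, 5.18 ± 0.761 in mpk6-ko and 3.20 ± 0.274 in 35S::ERF104, and passed in Col-0, with limma adjusted p of 0.000414, 0.00354, 6.15e-05 and 7.15e-05 in that order. Water replicate 1 of Col-0 lay below the lowest signal called present on that array, 347 units, and with it set to that level the FRK1 rise in Col-0 was at least 15.6-fold. CBP60G, an activator of ICS1, rose by 3.40 ± 0.391 in erf104-ko, 3.13 ± 0.452 in mpk6-ko and 3.64 ± 0.37 in 35S::ERF104, and, with 1 water array set in the same way, by at least 5.22-fold in Col-0. ACS2, an enzyme gene of ethylene synthesis, rose by 2.49 ± 0.366 in erf104-ko, 2.14 ± 0.461 in mpk6-ko and 1.89 ± 0.285 in 35S::ERF104, and by at least 2.69-fold in Col-0, where it was called absent under water. PAD3, the last enzyme of camalexin synthesis and a known WRKY33 target, passed in 35S::ERF104, by 1.31 ± 0.24 (limma adjusted p = 0.00337). The difference of that response between genotypes was 1.05 ± 1.53 for 35S::ERF104 minus Col-0 (limma adjusted p = 0.935).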

How the data were processed

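Leaf RNA was measured on Affymetrix ATH1 arrays, 1 colour, 24 arrays in 8 groups of 3. The deposited values are linear intensities, scaled by the authors to a trimmed mean of about 500 units per array, as the values show. The authors' table of normalized values was made with Genespring GX 7.3.1, per the series' design text, and gave the other deposited columns used, a detection call per group and the locus of each probe set. Replicate 2 of erf104-ko under flg22 was left out, which leaves 2 arrays in that group.

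Each intensity was taken to log2 and tested by moderated linear models, using R 4.3.3 and its package limma 3.58.1, with the variance prior allowed to follow the mean signal. The flg22 responses were fitted per genotype, and genotype differences in 1 fit of 23 arrays. P-values were Benjamini-Hochberg adjusted over 22746 probe sets, with 0.05 as threshold. A probe set called absent on all arrays of a group has only a bound there. It was taken per array as the higher of its own signal and the lowest signal called present. That lowest signal was read on the array from probe sets called present on every array of the group. Calls are not given per array, so lower signals may still have been called present on single arrays. The number of arrays limits the precision.

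The members were taken by locus from a fixed list. Values on every array were given for WRKY22, WRKY33, WRKY53, WRKY18 and WRKY40, for up to 8 members past the threshold in each response by size of change, for up to 6 past it in each genotype comparison or else the 3 with the smallest unadjusted p, and for members whose treatments did not overlap in any genotype. The remaining members past the threshold in a response were added after their values were seen. Members and lists were chosen with earlier results of these data known. The fits were tested on simulated data. Alternatives covered normalization, pseudocount, filters, trend, array weights, replicate block and leaving out arrays.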

Additional observations from a re-analysis of the deposited data

How the results depend on the processing

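The number of members that rose under flg22 varied with the variance model, the arrays used and the groups fitted together. Without a trend in the variance 0 passed in erf104-ko, mpk6-ko and Col-0. The methods' ANOVA also asked for a change of over 3-fold, which the limma counts do not. Adjusted over all probe sets it gave 0 in the same 3 genotypes and 6 in 35S::ERF104, and unadjusted it gave 9 in erf104-ko. In erf104-ko, 0 rose with all 24 arrays and 8 in 1 fit of 23 arrays, where 35S::ERF104 had 6. Quantile normalization gave 4 in Col-0. The fit of 15 arrays, added after seeing the data, gave 1 in mpk6-ko and 14 in Col-0, where 9 fell. Leaving out 1 array gave 5 to 19 in erf104-ko, 7 to 20 in mpk6-ko, 12 to 18 in 35S::ERF104 and 2 to 8 in Col-0.

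The members' median log2 change was 0.73, 0.84 and 0.36 in erf104-ko, mpk6-ko and 35S::ERF104 with 32 added before the log, 1.27 in erf104-ko with a filter on mean signal, and 1.40, 1.89, 0.83 and 1.67 in erf104-ko, mpk6-ko, 35S::ERF104 and Col-0 with a filter on detection calls, which keeps fewer members. In Col-0 it was 1.08 with quantile normalization, 0.88 with centring and −0.063 in the fit of 15 arrays. Leaving out 1 array gave 0.85 to 1.19 in erf104-ko, 0.92 to 1.43 in mpk6-ko, 0.43 to 0.80 in 35S::ERF104 and 0.37 to 0.90 in Col-0.

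For erf104-ko against Col-0 under water, 1 member passed with quantile normalization or centring, 0 without a trend, with array weights, with all 24 arrays or with only the 2 groups fitted, and 0 to 6 without 1 array. Between 35S::ERF104 and Col-0 under water, 3 passed with 32 added, 0 with either filter, with array weights, with all 24 arrays or with only the 2 groups, 22 in the fit of 15 arrays, and 0 to 8 without 1 array. For mpk6-ko under water 16 passed in the fit of 15 arrays and 0 to 2 without 1 array. Under flg22, leaving out 1 array gave 0 to 1 for erf104-ko and 0 to 3 for 35S::ERF104. The fit of 15 arrays called more members against Col-0 under water and in the response differences from Col-0. It also called more in 35S::ERF104 against Col-0 under flg22. The share of all probe sets called in that fit is not given, so these calls are not read as a result about the family. For 35S::ERF104 against erf104-ko under flg22, 1 passed with array weights and 1 with only the 2 groups. The 2 named values that changed sign were WRKY18 in the 35S::ERF104 response, which ran over −0.043 to 0.22 as single arrays were left out and was lowest without 35S::ERF104 water replicate 1, and WRKY54 in erf104-ko against Col-0 under flg22, −0.20 in the fit of 15 arrays. The cause of these changes was not tested.

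Groups share replicate numbers. These were not taken to pair the arrays, since not every same-numbered correlation of deviations was over 0.1: between treatments it was 0.168, 0.058 and 0.361 in mpk6-ko and 0.069, −0.084 and −0.276 in Col-0, and between mpk6-ko and Col-0 it was 0.203, 0.089 and 0.451 under flg22 and 0.055, 0.067 and −0.123 under water. With the replicate block 19, 19, 19 and 11 members rose in erf104-ko, mpk6-ko, 35S::ERF104 and Col-0, WRKY70 fell in 35S::ERF104 and Col-0, and 2 members passed between 35S::ERF104 and Col-0 under water. The block added WRKY18 and WRKY33 in erf104-ko, WRKY25, WRKY30, WRKY33, WRKY40, WRKY53 and WRKY60 in mpk6-ko, WRKY28, WRKY33, WRKY40 and WRKY46 in 35S::ERF104, and WRKY33 and WRKY53 in Col-0. Detection limits what could be measured in Col-0 under water, where 0 members were called present on all arrays.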
